A study of Mus musculus with 22 samples.

Results

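The experiment described here follows cardiac fibroblasts through 2 ways of loading the mouse heart, a TAC course and a swim course, and asks for which genes the change over time differed between them. TAC, read here as transverse aortic constriction, is surgical narrowing of the aorta that overloads the left ventricle, and swimming is an endurance exercise. The comparison used 12 of the 22 RNA-seq libraries of the series, 3 for each of 4 groups: 10 day TAC, 3 day TAC, 10 day swim and 4 day swim. Every library was labelled as cardiac fibroblasts of male, wild-type C57BL/6 mice aged 10 to 14 weeks after birth, and the labels name no transgene or drug. The labels do not say whether the libraries of a group came from separate animals, so each p-value measures only the spread between these samples. The early samples were taken on different days, day 3 after TAC and day 4 of swimming, and the sham and sedentary fibroblast libraries served only to show levels without either load.

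For each gene the interaction was computed, that is, the TAC course (10 day minus 3 day TAC) minus the swim course (10 day minus 4 day swim), on log2(FPKM + 1). FPKM are fragments counted on a gene, scaled by its transcript length and by the size of the library, and the added 1 pulls the changes of low genes toward 0. A positive interaction means that the gene gained more, or lost less, over the TAC course than over the swim course. Of the 23359 genes in the table, 8022 reached an FPKM of 1 in at least 3 of the 12 libraries and were tested, and a gene was called at an adjusted p under 0.05. Of these, 614 genes were called in the interaction.

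Fibroblasts build and remodel the collagen and elastic matrix of the heart. After pressure overload they are known to pass through an early inflammatory phase, with release of chemokines and cytokines, and then to deposit matrix. Metallothioneins are small metal-binding proteins induced by metals, stress hormones and inflammation. Exercise also enlarges the heart, as a rule without scarring.

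All 12 libraries held the fibroblast markers. Dcn lay between 273 and 1091 FPKM, Tcf21 between 18.5 and 67.3, Col1a1 between 18.9 and 253, Pdgfra between 2.14 and 9.10 and Ddr2 between 1.01 and 5.29. The relative sequencing depth estimated from the smallest steps in FPKM spanned 3.48 times, with 10 day TAC replicate 3 the shallowest. Within groups the libraries correlated at 0.943 to 0.991 over 12 pairs, and no pair was identical. On a principal component analysis, 10 day TAC replicate 3 lay at one end of component 1 (43.8% of the variance) and 4 day swim replicate 2 at one end of component 2 (21.4%). 10 day TAC replicate 3 also had the highest level of the ribosomal RNA gene Rn45s, 6988 FPKM, against 361 to 3041 in the other libraries. Summed haemoglobin FPKM was 11571 to 37151 in the 4 day swim libraries and 352 to 10716 in the other 9.

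The 2 courses moved different numbers of genes. Over the TAC course 700 of the 8022 genes were called (8.73%), of which 396 were higher at 10 days (4.94%) and 304 lower (3.79%). Over the swim course 55 genes were called (0.686%), of which 6 were higher at 10 days (0.0748%) and 49 lower (0.611%). Of the 49 lower genes, 37 were histone genes, which are described below. The genes called over the swim course had a median transcript length of 741 bases, against 2867 over all tested genes. The interaction called 614 genes (7.65%), 361 of them positive (4.5%) and 253 negative (3.15%). Over all tested genes the median interaction was 0.024, the median TAC course -0.036 and the median swim course -0.038. In the authors' deposited table, which tested each course alone on pooled groups, 1598 genes passed their q-value of 0.05 over the TAC course and 695 over the swim course.

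Most called genes had estimates of opposite sign along the 2 courses. This is partly built in, because genes were called on the difference between the courses. The share with opposite signs over all tested genes was not counted. Among the 361 positive genes, 337 had a higher estimate at 10 days over the TAC course and a lower one over the swim course, 23 were higher in both and 1 was lower in both. Of the 253 negative genes, 224 had a lower estimate at 10 days over the TAC course and a higher one over the swim course, 28 were lower in both and 1 was higher in both. The TAC change alone passed its own threshold for 194 positive and 148 negative genes, the swim change alone for 24 and 2, and neither for 130 and 100. For 16 of these called genes both courses were called with opposite signs: 13 were higher over TAC and lower over swimming, among them Eln, Hist1h1c, Gas1 and Klf2, and 3 were lower over TAC and higher over swimming, among them Il33. At the later time, TAC and swim libraries differed in 246 of the positive and 174 of the negative genes, and at the earlier time in 118 and 79. These counts use the same libraries as the interaction, so they are no separate support for it. In the scatter of the 2 courses the called genes lie off the diagonal, as a call on the difference requires, mostly to the upper left and lower right.

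**Figure D1:**
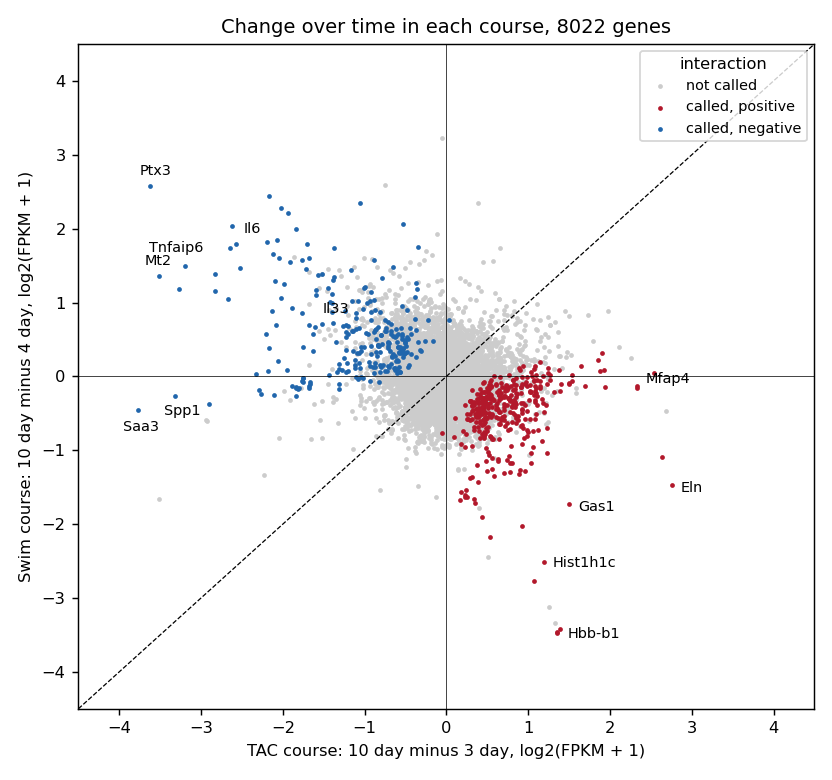
Each point is 1 of 8022 tested genes, with the TAC course (10 day minus 3 day TAC, log2 of FPKM + 1) on the x axis and the swim course (10 day minus 4 day swim, same scale) on the y axis, and with genes called in the interaction in red (361 positive) and blue (253 negative). The dashed line marks equal change in both courses, and a call on the difference places genes away from it. Eln, Gas1 and Hist1h1c lie to the lower right and Ptx3, Il6, Tnfaip6 and Mt2 to the upper left.

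How many genes were called rested on single libraries. Leaving out 1 library at a time gave between 109 and 1416 calls. The count was 109 without 10 day swim replicate 3, 120 without 10 day swim replicate 1, 126 without 3 day TAC replicate 1, 260 without 3 day TAC replicate 2, 298 without 4 day swim replicate 1 and 310 without 10 day TAC replicate 3. It was 355 without 4 day swim replicate 2 and 383 without 10 day TAC replicate 2. It was higher, at 970, 1243 and 1416, without 3 day TAC replicate 3, 10 day swim replicate 2 and 4 day swim replicate 3. Il6, Cxcl1 and Ccl2 were at the lowest level of their group in the first 2 of these libraries and at the highest in the third. After a trend on transcript length and GC content was removed, 710 of 7967 genes were called (8.91%), 385 positive (4.83%) and 325 negative (4.08%). The calls that held in each of the 12 fits that left out 1 library numbered 102, of which 63 were positive and 39 negative, and 95 of the 102 were also called after that correction. They are referred to below as the genes called in all 12 fits. Of the 614 called genes, 34 reached 1 FPKM in 1 group only, 23 of them at 10 days of TAC and 11 at 3 days of TAC, so that they passed the filter only through the group where they were high. Among all 8022 tested genes 93 reached it in 1 group only. Of the called genes described below, Fmod, Col8a2, Lcn2, Crabp2 and Aplnr are of this kind. All of these are also among the genes called in all 12 fits, as are others of this kind, such as Vash1, Steap1 and Trib2. A call in all 12 fits is therefore no sign that a gene passed the filter in more than 1 group.

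**Figure D2:**
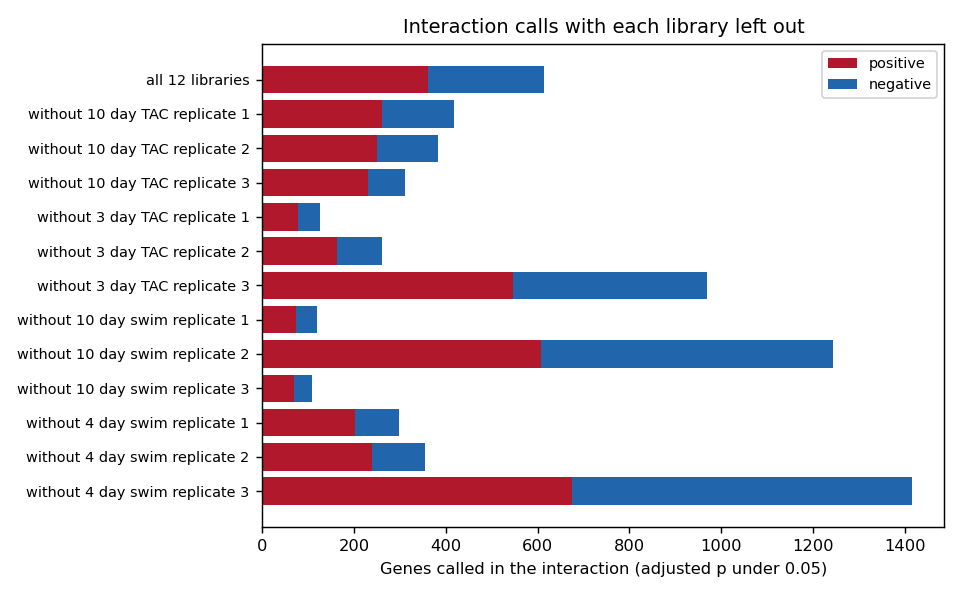
Bars give the number of genes called in the interaction (adjusted p under 0.05) with all 12 libraries and with each library left out, split into positive (red) and negative (blue) calls. The count is 614 with all libraries, lowest at 109 without 10 day swim replicate 3 and highest at 1416 without 4 day swim replicate 3.

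Among the chemokines and cytokines, the proteins that recruit and instruct immune cells, 11 of 25 fell over the TAC course and none rose. Over all genes 3.79% fell and 4.94% rose. Along the swim course 1 rose (Il33), against 0.0748% of all genes. In the interaction 11 of the 25 were called with a negative value and none with a positive one, against 3.15% and 4.5% of all genes. The median interaction of the list was -1.58, and 23 of the 25 had a negative value. The count of negative calls was 5 without 3 day TAC replicate 1, and the 5 members called in all 12 fits were Ccl7, Ccl11, Cxcl5, Cxcl14 and Il33.

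Cxcl5, a chemokine that attracts neutrophils (chromosome 5, 90759299 to 90761625, mm10), had 0.386, 0.419 and 0.338 FPKM in 10 day TAC libraries, against 24.2, 9.665 and 7.84 in 3 day TAC libraries. It had 4.85, 1.5 and 4.67 FPKM in 10 day swim libraries, against 0.652, 0.492 and 1.89 in 4 day swim libraries. The TAC groups lay far apart, while the lowest 10 day swim library fell below the highest 4 day swim library. Its interaction was -4.45 ± 0.57 (SE, adjusted p = 0.00209). The sedentary libraries held 7.63 to 100 FPKM and the sham libraries 23.9 and 161, so that all 10 day TAC, 10 day swim and 4 day swim libraries were below every control library.

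Il33, an alarmin cytokine stored in the nucleus of stromal cells (chromosome 19, 29925114 to 29960715), had 0.980, 0.837 and 0.832 FPKM in 10 day TAC libraries and 4.95, 4.59 and 4.57 in 3 day TAC libraries. In 10 day swim libraries it had 5.74, 5.43 and 5.67 FPKM, and in 4 day swim libraries 2.51, 1.5 and 2.31. Neither pair of groups overlapped, and the 2 courses ran in opposite directions, with a TAC change of -1.60 ± 0.14 (adjusted p = 7.88e-05) and a swim change of 1.10 ± 0.14 (adjusted p = 0.00613). The interaction was -2.70 ± 0.19 (adjusted p = 3.12e-05). It lost its call (adjusted p = 0.0531) when all 19 fibroblast libraries, in which the controls spread from 3.54 to 25.5 FPKM, shared 1 estimate of the spread.

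Ccl7, a chemokine for monocytes, fell over the TAC course by 2.21 ± 0.37 on the log2 scale, with 156, 162 and 101 FPKM in 10 day TAC libraries and 706, 708 and 513 in 3 day TAC libraries. Its 10 day swim libraries had 835, 506 and 871 FPKM and its 4 day swim libraries 471, 273 and 866, which overlapped. Ccl11, which attracts eosinophils, had 1.91, 0.276 and 0.267 FPKM in 10 day TAC libraries, against 7.01, 5.73 and 5.27 in 3 day TAC libraries. Cxcl14, a homeostatic chemokine, had 10.8, 4.01 and 4.86 FPKM in 10 day TAC libraries, against 41.3, 28.5 and 33.9 in 3 day TAC libraries. For both of these the swim groups overlapped, at 14.0 to 18.6 against 10.9 to 16.98 FPKM for Ccl11 and 38.4 to 53.6 against 29.4 to 54.5 FPKM for Cxcl14. Sham and sedentary libraries held 205 to 650 FPKM of Ccl7, 6.82 to 14.2 of Ccl11 and 21.1 to 34.7 of Cxcl14. Each of these ranges overlapped the 3 day TAC libraries.

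Il6, Cxcl1, Ccl2, Lif, Csf1 and Csf2 had interactions between -4.65 (Csf2) and -3.39 (Cxcl1), but their values spread widely inside 3 of the 4 groups. Il6, the cytokine that starts the acute phase response, had 12.4, 15.7 and 8.68 FPKM in 10 day TAC libraries and 108, 120 and 33.1 in 3 day TAC libraries. It had 208, 42.6 and 145 FPKM in 10 day swim libraries and 36.7, 9.82 and 77.7 in 4 day swim libraries. The lowest 3 day TAC library (replicate 3), the lowest 10 day swim library (replicate 2) and the highest 4 day swim library (replicate 3) were the same for Cxcl1 and Ccl2. The interaction of Il6 was -4.36 ± 1.03 (adjusted p = 0.0298). Its call held in 4 of 12 fits that left out 1 library and was lost without 10 day TAC replicates 1 or 3, 3 day TAC replicates 1 or 2, 10 day swim replicates 1 or 3, or 4 day swim replicates 1 or 2. Cxcl1 held in 9 of these fits and lost its call without 3 day TAC replicate 1, 10 day swim replicate 1 or 10 day swim replicate 3. Ccl2 held in 6, Lif in 7, Csf2 in 4 and Csf1 in 3. In sedentary and sham libraries Il6 ran between 54.3 and 448 FPKM, so no control library was as low as a 10 day TAC library. The control libraries held 303 to 1626 FPKM of Ccl2, against 502 to 1435 in 3 day TAC libraries. For Csf1 these ranges were 65.7 to 475 and 21.0 to 127, for Lif 8.57 to 72.0 and 15.1 to 40.5. For Csf2 they were 9.8 to 182 and 40.9 to 109, and the control libraries held 407 to 2900 FPKM of Cxcl1.

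The 250 bases before the start sites of Cxcl1, Il6 and Csf1 are shown because these are the called chemokines and cytokines whose promoter held the letters GGG and TTCC with any 3 bases between them, a form of the motif read by NF-kB, the transcription factor known for inducing inflammatory genes. The sequences are from RefSeq on GRCm38.p6, on the gene's strand, and capitals mark the letters on either strand, with 2 matches running into each other in Cxcl1. Cxcl1 lies at chr5:90890995-90891244 (plus strand), Il6 at chr5:30012864-30013113 (plus strand) and Csf1 at chr3:107760470-107760719 (minus strand).
Cxcl1: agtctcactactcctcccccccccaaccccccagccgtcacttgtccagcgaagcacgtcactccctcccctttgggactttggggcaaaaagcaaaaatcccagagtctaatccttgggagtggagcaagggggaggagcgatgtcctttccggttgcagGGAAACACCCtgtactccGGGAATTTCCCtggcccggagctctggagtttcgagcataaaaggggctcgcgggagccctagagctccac
Il6: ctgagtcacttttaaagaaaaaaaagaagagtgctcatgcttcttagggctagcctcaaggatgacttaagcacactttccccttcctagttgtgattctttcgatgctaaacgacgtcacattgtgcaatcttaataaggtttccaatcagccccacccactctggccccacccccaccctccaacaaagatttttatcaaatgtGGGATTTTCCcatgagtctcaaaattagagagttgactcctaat
Csf1: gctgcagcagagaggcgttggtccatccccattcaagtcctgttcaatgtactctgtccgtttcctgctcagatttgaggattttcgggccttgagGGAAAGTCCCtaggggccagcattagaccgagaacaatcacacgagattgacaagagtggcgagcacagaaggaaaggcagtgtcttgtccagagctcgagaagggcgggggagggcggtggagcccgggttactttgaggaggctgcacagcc
Of the 11 called chemokines and cytokines, 7 had a promoter in the table, and 3 of these held the motif. Their calls held in 9 (Cxcl1), 4 (Il6) and 3 (Csf1) of 12 fits. Of those called in all 12 fits, Cxcl14 and Il33 had no match, and Ccl7, Ccl11 and Cxcl5 had no promoter in the table. The motif occurred in 15 of 191 negative genes (7.85%) and in 9 of 242 positive genes (3.72%). It occurred in 5.32% of the 5863 tested genes with a promoter and in 4.6% of all 27025 promoters. The motif was chosen after the calls were seen, and a match describes letters, not binding.

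Other genes known from inflammatory responses were also negative. Tnfaip6, a secreted hyaluronan-binding protein induced by cytokines, had 20.4, 19.4 and 7.79 FPKM in 10 day TAC libraries and 198, 177 and 82.9 in 3 day TAC libraries. Its 10 day swim libraries had 192, 79.2 and 187 FPKM and its 4 day swim libraries 53.6, 18.8 and 120, so the TAC groups were apart and the swim groups overlapped. Ch25h, which makes 25-hydroxycholesterol, had 28.1, 45.0 and 26.7 FPKM in 10 day TAC libraries and 315, 259 and 161 in 3 day TAC libraries. The interactions were -4.69 ± 0.86 for Tnfaip6 (adjusted p = 0.0124) and -4.22 ± 0.74 for Ch25h (adjusted p = 0.00947), and both were called in all 12 fits. Sham and sedentary libraries held 86.6 to 294 FPKM of Tnfaip6 and 27.2 to 173 of Ch25h, so the 3 day TAC level of Tnfaip6 was not above the controls. The most negative interaction of the named genes, -6.20 ± 1.41, was that of Ptx3, a soluble pattern recognition protein, but its call held in 5 of 12 fits and its listed locus spans a second gene. Thbs1 (-4.16), an adhesive glycoprotein that activates TGF-beta, and Ifrd1 (-4.02) held in 4 and 3 of 12 fits.

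Mt1 and Mt2, the metallothioneins of most tissues, fell over the TAC course, and neither passed the test over the swim course. Mt2 (chromosome 8, 94172618 to 94173567) had 56.0, 40.4 and 40.8 FPKM in 10 day TAC libraries, against 721, 531 and 383 in 3 day TAC libraries. It had 598, 409 and 620 FPKM in 10 day swim libraries, against 277, 88.9 and 357 in 4 day swim libraries. Neither pair of groups overlapped, and the 10 day TAC libraries were the lowest of the 12. The TAC change was -3.52 ± 0.42 (adjusted p = 0.000889), an 11.4-fold lower value, the swim change of 1.36 ± 0.42 did not pass its threshold (adjusted p = 0.162), and the interaction was -4.88 ± 0.60 (adjusted p = 0.00209).

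Mt1, its neighbour on chromosome 8 (94179089 to 94180327), had 81.0, 54.5 and 64.1 FPKM in 10 day TAC libraries, against 328, 258 and 261 in 3 day TAC libraries. The 10 day swim libraries had 311, 295 and 358 FPKM and the 4 day swim libraries 227, 133 and 254. Its interaction was -2.78 ± 0.33 (adjusted p = 0.00209), and Mt1 and Mt2 were called in all 12 fits. Mt4, another metallothionein gene, which was not on the list, was called as well, at -3.98 ± 0.57 (adjusted p = 0.00365), and reads shared with its close relatives make its value uncertain. Sham libraries held 298 and 556 FPKM of Mt2 and sedentary libraries 174 to 341, all above the 10 day TAC libraries.

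The antioxidant genes driven by NRF2, a transcription factor that senses oxidants, had mostly negative values (18 of 24). Of the 24 tested, 4 were called with a negative interaction (Gsta3, Gclc, Gsr and Pgd) and none with a positive one, against 3.15% and 4.5% of all genes, and the list's median interaction was -0.68. Gsta3, a glutathione transferase, had 4.86, 2.58 and 2.07 FPKM in 10 day TAC libraries, against 7.76, 11.5 and 9.63 in 3 day TAC libraries. It had 26.1, 38.2 and 37.1 FPKM in 10 day swim libraries, against 19.3, 28.2 and 14.4 in 4 day swim libraries. The interaction was -2.11 ± 0.40 (adjusted p = 0.0136), with the call lost only without 10 day swim replicate 3. Without that library no gene of the list was called, and leaving out other single libraries gave up to 11. Hmox1, haem oxygenase, came to -3.10 ± 0.89 (adjusted p = 0.053) and Nqo1, a quinone reductase, to 0.21 ± 0.15 (adjusted p = 0.341).

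A further set of negative genes was high at 3 days of TAC. Like most of the negative genes, these had no called change over the swim course. Spp1, osteopontin, a matrix cytokine (chromosome 5, 104435111 to 104441053), had 1.72, 3.24 and 4.64 FPKM in 10 day TAC libraries and 33.2, 44.3 and 41.0 in 3 day TAC libraries. It had 0.860, 0.545 and 0.995 FPKM in 10 day swim libraries and 0.885, 1.61 and 0.994 in 4 day swim libraries. The 3 day TAC libraries stood above all others of the 12, and the swim groups overlapped. Its TAC change was -3.32 ± 0.24 (adjusted p = 2.41e-05), its swim change -0.26 ± 0.24 (adjusted p = 0.473) and its interaction -3.06 ± 0.34 (adjusted p = 0.00119). The sham libraries, also from day 3, held 4.71 and 16.2 FPKM, above the sedentary range of 0.867 to 1.22.

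Tnc, tenascin-C, an early matrix protein of healing tissue, had 1.2, 1.47 and 1.56 FPKM in 10 day TAC libraries and 10.1, 6.23 and 5.69 in 3 day TAC libraries, against at most 0.793 in the 6 swim libraries. The sham libraries held 12.3 and 10.4 FPKM of Tnc and the sedentary libraries 1.41 to 6.21, so the 3 day TAC libraries did not exceed sham and the swim libraries were below all controls. Mmp3, a protease that cleaves matrix, had 1.10, 0.673 and 0.596 FPKM in 10 day TAC libraries, 14.7, 8.62 and 14.6 in 3 day TAC libraries, 3.10 to 4.53 in 10 day swim libraries and 3.56 to 6.00 in 4 day swim libraries. Lcn2, an iron-scavenging acute phase protein, had 0.610 to 0.701 FPKM in 10 day TAC libraries and 8.79, 2.87 and 10.0 in 3 day TAC libraries, against 0.211 to 0.660 in the 6 swim libraries. The interactions were -2.16 ± 0.28 for Tnc, -2.53 ± 0.32 for Mmp3 and -2.26 ± 0.42 for Lcn2, and all 3 were called in all 12 fits. Lcn2, however, passed the filter on low values only through the 3 day TAC libraries, where it is high. Crabp2, a carrier of retinoic acid, was also highest at 3 days of TAC, at low level, with 0.0326 to 0.568 FPKM in 10 day TAC libraries, 1.5 to 2.34 in 3 day TAC libraries and at most 0.1 in swim libraries. It too passed the filter only through the 3 day TAC libraries.

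Timp1, an inhibitor of matrix proteases, had 32.0, 45.1 and 69.9 FPKM in 10 day TAC libraries and 321, 107 and 363 in 3 day TAC libraries, against 6.69 to 8.89 in 10 day swim libraries and 8.77 to 10.3 in 4 day swim libraries. The TAC groups did not overlap and every TAC library lay above every swim library. The interaction of -2.10 ± 0.56 was near the threshold (adjusted p = 0.0424), held in 4 of 12 fits, and is uncertain because the listed locus also spans a gene on the other strand. Saa3, an acute phase protein, had 0.317 to 0.754 FPKM in 10 day TAC libraries and 29.1, 6.96 and 41.9 in 3 day TAC libraries, with at most 1.69 in swim libraries and 7.73 and 16.7 in sham libraries. Its interaction was -3.32 ± 0.65 (adjusted p = 0.0166), lost without 3 day TAC replicate 1 or 10 day swim replicate 1. C3, the central complement component, was also called (-2.37 ± 0.54, adjusted p = 0.0269), and with Saa3 and Lcn2 made up the 3 negative calls among 11 complement and acute phase genes, against 3.15% of all genes, a list with a median interaction of -0.99. Of these calls, Lcn2 passed the filter only through the group where it is high.

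**Figure D3:**
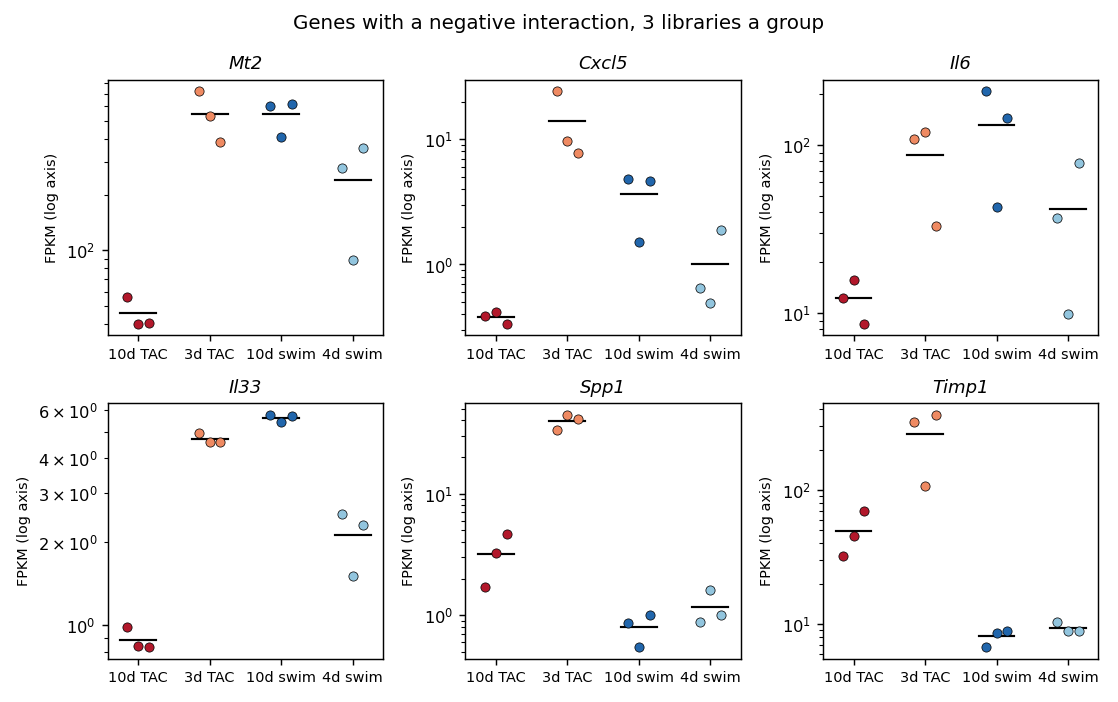
FPKM on a log axis in each library of 6 genes with a negative interaction, in the order 10 day TAC, 3 day TAC, 10 day swim and 4 day swim, with bars at the group means (n = 3). Mt2, Cxcl5, Il6 and Il33 have their lowest mean at 10 days of TAC and a higher mean at 10 than at 4 days of swimming, while Spp1 and Timp1 are highest at 3 days of TAC and stay low in the swim libraries.

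Several genes of the elastic and collagen matrix were positive. Eln, which encodes elastin, the core of elastic fibres (chromosome 5, 134702596 to 134747254), had the smallest adjusted p of the named genes. It had 78.7, 102 and 103 FPKM in 10 day TAC libraries, against 11.8, 15.4 and 12.3 in 3 day TAC libraries. In the swim course it had 2.48, 3.37 and 2.33 FPKM at 10 days, against 9.97, 7.20 and 10.9 at 4 days. The early groups lay close together and the late groups far apart, with no overlap within either course. Eln rose 6.75-fold over the TAC course (2.75 ± 0.19, adjusted p = 2.41e-05) and was 2.76-fold lower at 10 days of swimming (-1.47 ± 0.19, adjusted p = 0.00613), and its interaction was 4.22 ± 0.27 (adjusted p = 1.61e-05). Sham and sedentary libraries held 1.62 to 6.61 FPKM.

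Mfap4, a microfibril protein that binds elastin and collagen, had 146, 142 and 165.5 FPKM in 10 day TAC libraries and 25.8, 40.3 and 24.0 in 3 day TAC libraries. The swim libraries overlapped, at 35.1, 40.1 and 30.3 FPKM at 10 days and 42.8, 30.2 and 46.0 at 4 days, so the interaction of 2.49 ± 0.30 (adjusted p = 0.00209) came from the TAC side. Mfap2, another microfibril protein, had 8.91, 12.6 and 16.9 FPKM in 10 day TAC libraries and 5.26 to 6.26 in 3 day TAC libraries, against 2.54 to 4.04 in 10 day swim libraries and 4.58 to 4.98 in 4 day swim libraries (interaction 1.45 ± 0.29, adjusted p = 0.017). It lost its call without 3 day TAC replicate 1, 10 day swim replicate 1 or 10 day swim replicate 3. Among 12 elastic fibre genes these 3 were called positive and 1 negative, against 4.5% and 3.15% of all genes. The negative one, Efemp1, a fibulin, had 3.87, 2.27 and 0.985 FPKM in 10 day TAC libraries and 5.73 to 8.06 in 3 day TAC libraries (interaction -1.48 ± 0.38, adjusted p = 0.0369, held in 4 of 12 fits).

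Fmod, fibromodulin, which guides collagen fibril assembly, had 5.20, 10.8 and 12.1 FPKM in 10 day TAC libraries and 0.805, 0.730 and 0.542 in 3 day TAC libraries. In the 6 swim libraries it did not exceed 0.744 FPKM. Its interaction was 2.50 ± 0.34 (adjusted p = 0.0026). Mdk, midkine, a heparin-binding growth factor, had 7.23, 10.7 and 16.7 FPKM in 10 day TAC libraries and 0.819, 2.19 and 1.33 in 3 day TAC libraries, against 2.05 to 2.36 in 10 day swim libraries and 1.91 to 3.29 in 4 day swim libraries (interaction 2.45 ± 0.38, adjusted p = 0.00563). Both were called in all 12 fits, and both were higher at 10 days of TAC than in any sham or sedentary library. Fmod, however, passed the filter on low values only through the 10 day TAC libraries, where it is high.

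Of 17 collagen chains tested, 11 rose over the TAC course and none fell, against 4.94% and 3.79% of all genes. Over the swim course none was called, against 0.686% of all genes. In the interaction 4 were called positive (Col3a1, Col4a2, Col5a3 and Col8a2) and none negative, against 4.5% and 3.15% of all genes. The median interaction was 0.87, and 16 of the 17 values were above 0. Col8a2, a chain of the network-forming type VIII, had 2.33, 2.55 and 5.16 FPKM in 10 day TAC libraries and 0.397 to 0.517 in 3 day TAC libraries, against at most 0.337 in swim libraries. Its interaction was 1.59 ± 0.26 (adjusted p = 0.00731). It was the only collagen call in all 12 fits, but it passed the filter on low values only through the 10 day TAC libraries, where it is high. Col3a1, the main chain of fine reticular fibres, had 91.1, 89.0 and 66.0 FPKM in 10 day TAC libraries and 42.5, 44.4 and 39.7 in 3 day TAC libraries, against 13.4, 11.6 and 9.54 in 10 day swim libraries and 24.5, 11.2 and 15.1 in 4 day swim libraries. Its interaction of 1.39 ± 0.34 (adjusted p = 0.0339) held in 5 of 12 fits, and the count of collagen calls was 1 without 3 day TAC replicate 1.

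Matricellular proteins, which sit in the matrix and signal to cells, split. Of 18 tested, 4 were called positive (Sparc, Comp, Thbs4 and Wisp2) and 4 negative (Tnc, Spp1, Thbs1 and Ctgf), against 4.5% and 3.15% of all genes, and the values were positive for 9 and negative for 9. Sparc, a collagen-binding glycoprotein, had 495, 578 and 417 FPKM in 10 day TAC libraries and 227, 261 and 216 in 3 day TAC libraries, with 161 to 180 in 10 day swim libraries and 173 to 231 in 4 day swim libraries (interaction 1.33 ± 0.23, adjusted p = 0.00947, called in all 12 fits). Comp, cartilage oligomeric matrix protein, had 6.64, 9.03 and 10.9 FPKM in 10 day TAC libraries and 1.82 to 2.94 in 3 day TAC libraries, against 1.33 to 2.60 in swim libraries (interaction 1.51 ± 0.28). Thbs4, thrombospondin 4, had 16.7, 35.4 and 19.7 FPKM in 10 day TAC libraries and 5.98 to 7.01 in 3 day TAC libraries, against 0.466 to 1.46 in swim libraries (interaction 1.51 ± 0.35, held in 7 of 12 fits). Comp lost its call only without 10 day swim replicate 3.

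Smaller positive interactions were found for Tgfb3, a TGF-beta ligand (1.2 ± 0.27, adjusted p = 0.0241), and Meox1, a homeobox factor known from activated cardiac fibroblasts (1.08 ± 0.25, adjusted p = 0.0276). Meox1 had 26.3, 31.3 and 26.7 FPKM in 10 day TAC libraries and 16.0, 12.5 and 17.1 in 3 day TAC libraries, against 4.39 to 5.73 in 10 day swim libraries and 4.84 to 7.39 in 4 day swim libraries. These calls held in 8 and 6 of 12 fits. Tgfb3 was 1 call of 17 tested in the TGF-beta pathway, and among 15 growth factors 4 were called positive (Igfbp7, Pdgfb, Vegfb and Mdk), against 4.5% of all genes.

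Several known genes of activated fibroblasts were not called in the interaction. Postn, periostin, had 49.95, 69.1 and 44.9 FPKM in 10 day TAC libraries and 15.4, 18.4 and 13.1 in 3 day TAC libraries, against 5.52, 4.22 and 5.08 in 10 day swim libraries and 4.19, 1.27 and 2.08 in 4 day swim libraries. It rose over the TAC course (1.73 ± 0.27, adjusted p = 0.00342), the swim value was 0.84 ± 0.27 (adjusted p = 0.164), and the interaction of 0.90 ± 0.38 missed the threshold (adjusted p = 0.135), though it passed after the length and GC trend was removed (1.29, adjusted p = 0.0281). Col1a1, the main fibrillar collagen chain, gave 1.09 ± 0.41 (adjusted p = 0.102). Cthrc1, a secreted protein of matrix-making fibroblasts, gave 0.30 ± 0.87 (adjusted p = 0.832), with 5.90, 20.9 and 77.9 FPKM in 10 day TAC libraries and 21.0, 20.6 and 11.1 in 3 day TAC libraries. Acta2, smooth muscle actin, gave 0.15 ± 0.35 (adjusted p = 0.792), and none of 16 myofibroblast contractile genes was called, against 7.65% of all genes. In a list this short, no call cannot be told from that share.

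Markers of other cell types moved along the same courses. Over the TAC course 12 of 19 endothelial markers and 5 of 10 pericyte and smooth muscle markers were called higher at 10 days, against 4.94% of all genes. The summed endothelial FPKM was 684 to 1433 in 10 day TAC libraries and 486 to 542 in 3 day TAC libraries, against 359 to 606 in 10 day swim libraries and 415 to 672 in 4 day swim libraries. In the interaction 1 endothelial marker was called, Tie1, a vascular receptor (1.59 ± 0.42, adjusted p = 0.041), and 1 of the pericyte list, Ndufa4l2 (1.22 ± 0.26, adjusted p = 0.0215). Both were positive, against 4.5% of all genes called positive. The interaction was above 0 for 18 of the 19 endothelial markers (median 0.447). It was above 0 for 8 of the 10 pericyte and smooth muscle markers (median 0.70). The part of endothelial and pericyte cells in the rise of matrix genes was not tested, and in bulk RNA fewer cells of a type and less RNA per cell cannot be told apart.

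Of 25 macrophage markers, 5 were called positive (C1qb, C1qc, Aif1, H2-Aa and H2-Ab1) and none negative, against 4.5% and 3.15% of all genes, and 11 of the 25 had a negative value. Of the list, 2 were called after the length and GC correction and none without 3 day TAC replicate 1. C1qc, a complement C1q chain made by macrophages, had 302, 184 and 196 FPKM in 10 day TAC libraries and 172, 187 and 235 in 3 day TAC libraries, against 212, 214 and 200 in 10 day swim libraries and 346, 452 and 391 in 4 day swim libraries. The TAC groups overlapped and the 4 day swim libraries were the highest. Summed macrophage FPKM was 1875 to 3109 in 10 day TAC, 1988 to 2665 in 3 day TAC, 2179 to 2675 in 10 day swim and 3065 to 3951 in 4 day swim libraries. Among the 3 neutrophil markers tested none was called in the interaction, against 7.65% of all genes, too few markers to tell from that share.

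Red cell and heart muscle transcripts varied strongly between libraries. Hbb-b1, an adult beta-globin, had 1018, 2034 and 1271 FPKM in 10 day TAC libraries and 244, 1080 and 597 in 3 day TAC libraries, against 110, 3192 and 598 in 10 day swim libraries and 3876 to 11900 in 4 day swim libraries. The interaction of 4.83 ± 1.33 (adjusted p = 0.0483) held in 2 of 12 fits, and reads of globin copies are hard to assign to 1 gene. Hba-a2, an alpha-globin, was the other red cell marker called positive of the 5 tested, against 4.5% of all genes, at 4.81 ± 1.27 (adjusted p = 0.0417). After the length and GC correction it stood at 4.33 (adjusted p = 0.0583), and Hbb-b1 was not tested there for lack of a transcript length. Nppa, the atrial natriuretic peptide of heart muscle cells, had 24.6, 8.22 and 57.2 FPKM in 10 day TAC libraries and 1.65, 4.74 and 2.76 in 3 day TAC libraries, against 0.255 to 1.87 in 10 day swim libraries and 1.18 to 5.72 in 4 day swim libraries. Its interaction was 3.73 ± 0.86 (adjusted p = 0.0276), lost without 10 day TAC replicate 3, 3 day TAC replicate 1, 10 day swim replicate 3 or 4 day swim replicate 1. The 16 cardiomyocyte markers tested had a median interaction of 1.09 with 1 positive call, against 4.5% of all genes, and 15 values above 0. Their summed FPKM was 240 to 1039 in 10 day TAC, 276 to 315 in 3 day TAC, 131 to 375 in 10 day swim and 191 to 323 in 4 day swim libraries.

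Histone genes, whose proteins package DNA, made up the largest group of positive calls among the lists, and their interaction came mostly from the swim side. Of 70 tested, 37 were called positive and none negative, against 4.5% and 3.15% of all genes. The values were above 0 for 66 and below 0 for 4, with a median interaction of 1.38 (0.90 after the length and GC correction, with 31 calls). Over the swim course 37 were lower at 10 days, against 0.611% of all genes (49 genes, these 37 among them). Over the TAC course 12 were higher, against 4.94% of all genes. This list was added after the calls were seen. The count of positive calls stayed between 23 and 45 when single libraries were left out, and 22 genes were called in all 12 fits.

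Hist1h1c, a linker histone (chromosome 13, 23738807 to 23740367), had 13.9, 18.97 and 21.4 FPKM in 10 day TAC libraries and 6.60, 7.06 and 8.18 in 3 day TAC libraries. It had 7.33, 12.9 and 8.83 FPKM in 10 day swim libraries and 73.9, 70.1 and 38.2 in 4 day swim libraries, so the 4 day swim libraries stood above all others. The swim change was -2.51 ± 0.27 (adjusted p = 0.00326), the TAC change 1.19 ± 0.27 (adjusted p = 0.0177) and the interaction 3.70 ± 0.38 (adjusted p = 0.000656). Hist1h2bg, a core histone H2B, had 10.7, 15.9 and 14.7 FPKM in 10 day TAC libraries and 6.30 to 8.71 in 3 day TAC libraries, against 4.89 to 6.50 in 10 day swim libraries and 12.8 to 16.4 in 4 day swim libraries. Its interaction was 1.94 ± 0.26 (adjusted p = 0.00245). Many histone messages lack a poly-A tail and many histone genes are near copies of each other, so their levels in poly-A libraries are uncertain. None of 13 DNA replication genes and none of 6 mitosis genes was called in the interaction, against 7.65% of all genes, at medians of -0.11 and -0.19. Both lists are too short to tell no call from that share.

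Klf2, Gas1 and Dusp1 were also higher at the 10 day end of the TAC course and at the 4 day start of the swim course. Klf2, a transcription factor known for restraining inflammation (chromosome 8, 72319062 to 72321654), had 10.9, 7.31 and 9.44 FPKM in 10 day TAC libraries and 4.17, 3.68 and 4.00 in 3 day TAC libraries. It had 3.50, 5.67 and 4.85 FPKM in 10 day swim libraries and 11.3, 12.1 and 11.4 in 4 day swim libraries. Neither pair overlapped, with a TAC change of 1.03 ± 0.17 (adjusted p = 0.00464), a swim change of -1.17 ± 0.17 (adjusted p = 0.0112) and an interaction of 2.20 ± 0.24 (adjusted p = 0.00119). Gas1, a membrane protein tied to growth arrest, had 23.2, 15.3 and 19.1 FPKM in 10 day TAC libraries and 4.88, 5.73 and 7.90 in 3 day TAC libraries, against 8.23, 12.7 and 9.03 in 10 day swim libraries and 57.0, 35.8 and 20.6 in 4 day swim libraries (interaction 3.22 ± 0.44, adjusted p = 0.00278). Dusp1, a phosphatase that switches off MAP kinases, had 45.6, 30.5 and 44.3 FPKM in 10 day TAC libraries and 17.01 to 24.7 in 3 day TAC libraries, against 29.0 to 36.9 in 10 day swim libraries and 52.3 to 60.6 in 4 day swim libraries (interaction 1.75 ± 0.28, adjusted p = 0.00621). All 3 were called in all 12 fits. Sham replicate 2 held 13.1 FPKM of Klf2, above every 10 day TAC and 4 day swim library, and 40.0 of Dusp1, within the 10 day TAC range. The remaining sham and sedentary libraries held 2.92 to 7.06 FPKM of Klf2 and 16.7 to 26.7 of Dusp1. For Gas1 all control libraries lay between 3.41 and 11.35 FPKM. Klf2 and Dusp1 were the only calls among 26 immediate early genes, a share close to the 7.65% called over all genes.

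**Figure D4:**
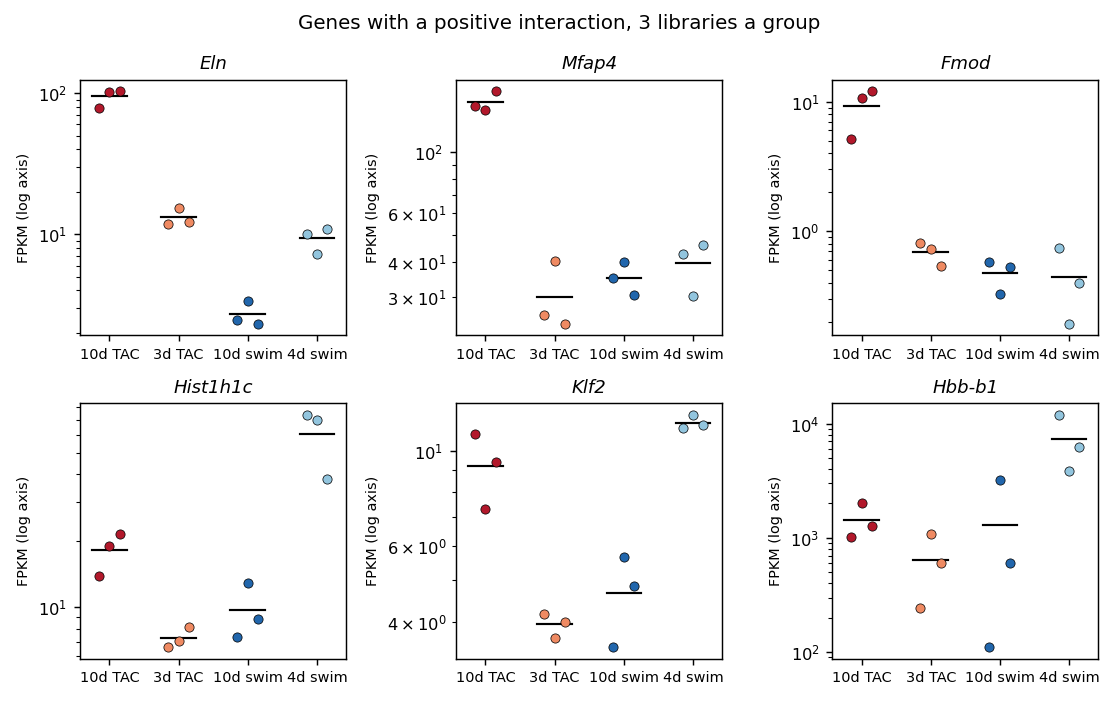
FPKM on a log axis in each library of 6 genes with a positive interaction, in the order 10 day TAC, 3 day TAC, 10 day swim and 4 day swim, with bars at the group means (n = 3). Eln, Mfap4 and Fmod are highest at 10 days of TAC, while Hist1h1c and Hbb-b1 are highest at 4 days of swimming and Klf2 is high at 10 days of TAC and 4 days of swimming.

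The remaining lists given here are set beside the 7.65% of all genes called in the interaction. None of 26 cytosolic ribosomal protein genes and none of 35 oxidative phosphorylation genes was called, with medians of 0.09 and 0.46. Among 26 interferon-stimulated genes 1 was called negative, Ifit1 (-3.40 ± 0.93, adjusted p = 0.047, held in 3 of 12 fits), and 1 positive, Bst2 (1.37 ± 0.25, adjusted p = 0.0129). Over all genes these shares were 3.15% and 4.5%, so the calls of the interferon list were close to the share over all genes. The median of the interferon list was -0.65. Hsd11b1, which regenerates active glucocorticoid, had 11.4, 6.12 and 4.11 FPKM in 10 day TAC libraries and 27.35 to 30.3 in 3 day TAC libraries, against 53.3 to 71.3 in 10 day swim libraries and 44.7 to 64.0 in 4 day swim libraries (interaction -2.04 ± 0.38, adjusted p = 0.0135). Hsd11b1 was 1 of 3 calls among 20 markers of resting fibroblasts, against 7.65% of all genes. The other 2 were positive, Entpd2, an ectonucleotidase (1.19 ± 0.25, adjusted p = 0.019), and Htra3, a secreted serine protease (1.33 ± 0.32, adjusted p = 0.0316). Of the 20, 8 had a positive and 12 a negative value. The fibroblast markers Tcf21 and Pdgfra were not called (-0.22 ± 0.29 and -0.41 ± 0.41, adjusted p of 0.617 and 0.498).

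**Figure D5:**
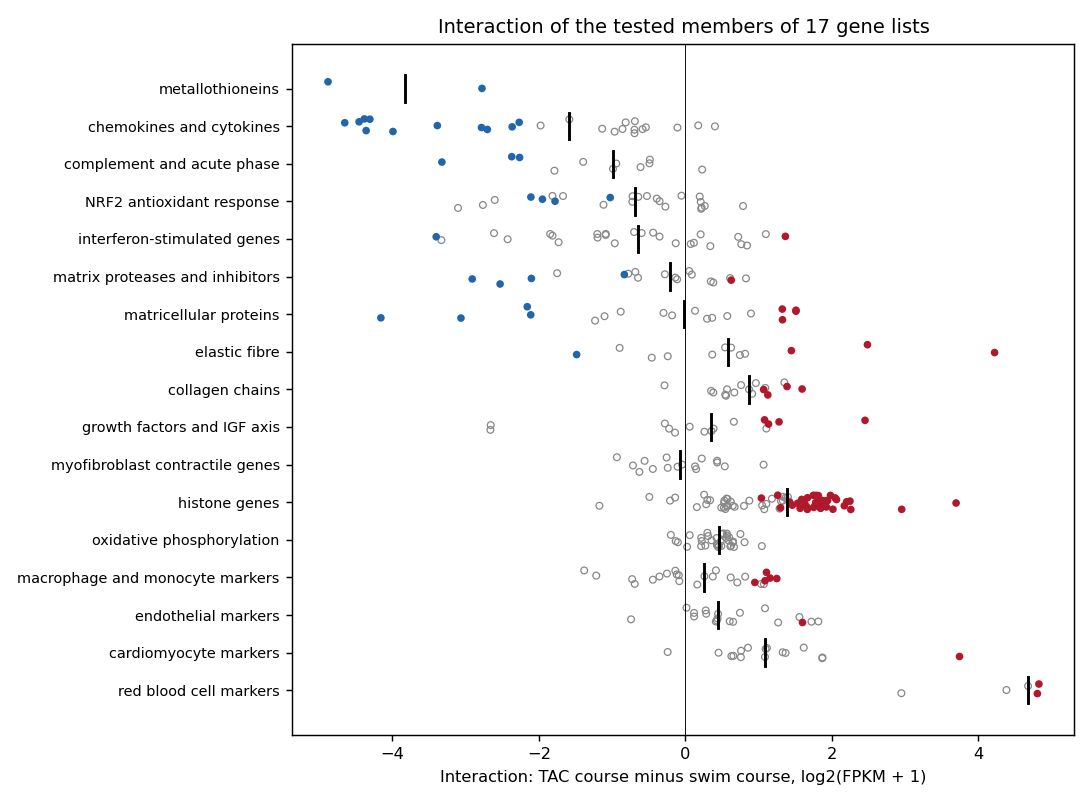
Interaction values (TAC course minus swim course, log2 of FPKM + 1) of the tested members of 17 gene lists, with filled points called (red positive, blue negative), open points not called and a bar at each list's median. Chemokines and cytokines have 11 negative calls and a median of -1.58, and histone genes have 37 positive calls and a median of 1.38.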

How the data were processed

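Poly-A RNA was made into stranded libraries and sequenced, per the labels' protocols. The authors deposited FPKM per gene and library, from Cufflinks 2.0.2 on mm10 per the submitters' processing notes; no aligner, annotation or use of strand is given in the sources used here. A Cuffdiff table deposited by the authors gives q-values for each course on pooled replicates. The 44 columns of confidence bounds were left aside, and 27 gene symbols that had become dates were recovered from their loci.

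Genes that reached 1 FPKM in 3 or more of the 12 libraries were kept, and their log2(FPKM + 1) values were modelled by limma 3.58.1 with its trend and robust options (R 4.3.3), and p-values were adjusted over all genes tested (Benjamini-Hochberg). The same fit gave each course. In the correction for length and GC content, natural splines with 4 degrees of freedom were removed from each library. Over all tested genes the interaction had a rank correlation of -0.278 with transcript length and 0.357 with GC content. For the swim course these were 0.499 and -0.322, and for the TAC course 0.065 and 0.219. The deposited FPKM carry no counts, so depth is known only relatively, and the number of replicates limits the precision. Alternatives were other pseudocounts, filters, scalings, limma settings, a fit over 19 libraries and leaving out each library.

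Genes were named by a rule: the 12 largest positive and negative interactions among called genes at a group mean FPKM of at least 5, the 8 largest on each side also called after correction, called members of the lists and a fixed set of reference genes. Ctgf and Wisp2 are named as list members. The members, lists and naming rule were chosen with earlier results of these data known. Replicate numbers follow the order of deposit and pair nothing.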

Additional observations from a re-analysis of the deposited data

Results flagged for a closer look

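Among the genes called in the interaction, 16 also had the TAC and swim courses both called with opposite signs (limma, interaction adjusted p of 0.00585 or less). Genes not called in the interaction were not searched for this pattern. The negative interactions were -3.11 for G530011O06Rik, -2.70 for Il33 and -2.06 for Fmo2. The positive interactions outside the histone genes were 4.22 for Eln, 3.22 for Gas1, 2.20 for Klf2 and 1.80 for Cd72. Among histone genes they were 3.70 for Hist1h1c, 2.25 for Hist1h2bl, 2.20 for Hist1h2bf, 2.17 for Hist2h2aa1, 2.06 for Hist1h2bk, 1.98 for Hist1h2bn, 1.94 for Hist1h2bg, 1.75 for Hist1h2bp and 1.42 for Hist1h2br. All 16 were also called after the trend on length and GC content was removed, and all 16 were called in all 12 fits that left out 1 library. The TAC and swim values of G530011O06Rik were -1.37 and 1.73, of Fmo2 -0.92 and 1.14, and of Cd72, a B-cell and macrophage surface protein, 0.99 and -0.81.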

How the results depend on the processing

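No gene named by the rule above changed the direction of its interaction past the threshold under any alternative run. Other genes mentioned, such as Mt4, Ctgf, Wisp2, Fmo2, Cd72 and Rdh10, were not followed through every alternative. With no filter on low values the interaction called 315 genes and the swim course 18. At FPKM of at least 5 in 3 libraries the interaction called 377 genes and the TAC course 328. The swim course called 36 genes after quantile normalization and 26 after the length and GC trend was removed. That correction left 710 interaction calls, 462 of them shared with the 614 reported. Without 10 day TAC replicate 3 and 4 day swim replicate 2, a choice made after seeing the data, the interaction called 302 genes and the swim course 9. Leaving out 1 library gave 109 to 1416 calls in the interaction, 226 to 979 over the TAC course and 3 to 70 over the swim course. Of 89 named genes called, 31 stayed called without 10 day swim replicate 3, 33 without 3 day TAC replicate 1, 34 without 10 day swim replicate 1 and 43 with no filter on low values; the cause was not tested. Positive calls made up 58.8% of those reported, 70.2% with no filter on low values, 68.0% in the fit over 19 libraries, 76.8% without the 2 outer libraries and 51.3% after quantile normalization. Leaving out 1 library, that share ran from 47.6% without 4 day swim replicate 3 and 48.9% without 10 day swim replicate 2, where negative calls outnumbered positive ones, to 74.2% without 10 day TAC replicate 3. No paired analysis was possible because the replicate numbers were given in order of deposit and do not come from the labels; letter codes in the sample titles, some shared by 3 day TAC and 4 day swim libraries, are not explained there, and a batch they might mark was not tested. Adjusted p-values ran from 0.0498 for Ptpro, Amd1 and Rhod, just inside the threshold, to 0.0501 for Anp32b, just outside it.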

Other observations

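Several genes called in all 12 fits that left out 1 library belong to no list above; those given here were chosen after their values were seen. Rdh10, a retinol dehydrogenase of the path to retinoic acid, had 1.90, 1.88 and 1.22 FPKM in 10 day TAC libraries and 13.2, 10.8 and 6.44 in 3 day TAC libraries, against 12.7, 8.58 and 12.2 in 10 day swim libraries and 5.48, 2.59 and 7.30 in 4 day swim libraries. Its interaction was -3.08 ± 0.43 (SE, adjusted p = 0.00321), and neither pair of groups overlapped. Adm, which encodes the vasodilator peptide adrenomedullin, had 2.22 to 4.66 FPKM in 10 day TAC libraries and 10.5 to 26.5 in 3 day TAC libraries, against 16.3 to 19.4 in 10 day swim libraries and 11.1 to 15.2 in 4 day swim libraries (interaction -2.55 ± 0.42, adjusted p = 0.00704). Bmper, a secreted modulator of BMP signalling, was lower in the 10 day TAC libraries (0.775 to 1.54 FPKM) than in the 3 day TAC libraries (3.73 to 4.42), and the swim libraries held 4.33 to 5.80.

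On the positive side, Mest, an imprinted gene of growing mesoderm, had 3.91, 6.59 and 7.47 FPKM in 10 day TAC libraries and 1.01, 1.03 and 0.630 in 3 day TAC libraries, against at most 0.936 in the 6 swim libraries (interaction 1.63 ± 0.26, adjusted p = 0.00585). Aplnr, the apelin receptor, which endothelial cells also express, had 1.6 to 3.67 FPKM in 10 day TAC libraries and 0.193 to 0.531 in 3 day TAC libraries, against at most 0.434 in swim libraries (interaction 1.51 ± 0.27, adjusted p = 0.00993). It passed the filter on low values only through the 10 day TAC libraries. Its rise stood beside that of 12 of 19 endothelial markers over the TAC course, whose part in it was not tested.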
